A study of Mus musculus with 44 samples.

Results

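Chrna5, Chrna3 and Chrnb4 are neighbouring genes on mouse chromosome 9 that encode the α5, α3 and β4 subunits of the nicotinic acetylcholine receptor. They were chosen by name, as the 3 rows of these genes among the 22682 gene symbols that all 44 count files share, and all 3 were tested in each of the 18 comparisons below. The libraries were made by translating ribosome affinity purification (TRAP), in which ribosomes that carry EGFP-L10a are pulled down from tissue with beads carrying a GFP antibody to give 28 IP libraries, while RNA of whole homogenate gives 16 input libraries. The study compared IPs with whole tissue at baseline, and IPs of mice given nicotine with IPs of control mice. Each library came from a pool of 3 to 9 adult mice of background strain B6J.Cg, females and males together unless a label says otherwise.

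The medial habenula (MHb) came from the ChAT-TRAP line DW167, a single transgenic line in which the ChAT BAC drives the tagged ribosome. It gave 4 inputs, 2 at baseline and 2 from mice on 0.2% saccharin water for 6 weeks with saline injected 3 h before collection. It gave 9 IPs without nicotine: 4 at baseline, 2 on saccharin water, 2 on saccharin water with the saline injection and 1 with a saline pump. The baseline IPs are called saline in their titles and baseline in their descriptions. A further 2 ChAT IPs were from mice that drank nicotine tartrate at 500 mg/L in saccharin water, and 1 was from such mice with the saline injection. The interpeduncular nucleus (IPN) came from 3 BAC Cre drivers, each crossed to the Eef1a1-LSL.EGFPL10 allele, so that all IPN mice carried that allele and the tag was made where Cre had acted. Chrna5-Cre SN83 gave 4 inputs and 3 IPs, all at baseline. Amigo1-Cre NP231 gave 3 baseline inputs and 1 saline pump input, 2 baseline IPs and 1 saline pump IP, and 3 IPs of mice on the nicotine water. Epyc-Cre KR363 gave 3 baseline inputs and 1 saline pump input, 4 baseline IPs and 1 saline pump IP, and 2 IPs of mice with pumps that gave nicotine at 24 mg/kg per day. Pumps ran for 10, 11 or 14 days. The baseline ChAT inputs were left and right MHb of 9 males, and Chrna5 pool 4 was of males. No label says whether both sides came from the same males. Tests with ChAT inputs count the 2 sides as separate libraries, so their p-values may be too small if animals are shared. Each driver is 1 transgenic line, and no source used here says which genes the SN83 fragment carries beside the driver.

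Nicotinic receptors are rings of subunits that open a cation channel when acetylcholine or nicotine binds. An α3 or other α subunit forms the agonist site together with a β subunit such as β4, whereas α5 makes no such site with a usual partner and joins receptors that already hold an α and a β subunit, where it changes their calcium permeability and desensitization. The MHb sends cholinergic axons through the fasciculus retroflexus to the IPN, and this pathway is known for dense α3β4 receptors, for α5 in the IPN and for a role in nicotine aversion and withdrawal. In humans the orthologous gene cluster is known for variants linked to heavy smoking.

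In the GENCODE M21 annotation of GRCm38, Chrna5 (ENSMUSG00000035594.10) lies at chr9:54980880-55007779 on the plus strand. Chrna3 (ENSMUSG00000032303.7) follows at chr9:55010111-55026562 and Chrnb4 (ENSMUSG00000035200.7) at chr9:55028154-55048779, both on the minus strand. The 3 genes span 67.9 kb. Chrna5 and Chrna3 converge, with 2331 bases between their ends, and 1591 bases separate the start of Chrna3 from the end of Chrnb4. No strand marking is named for these libraries, and an antisense gene inside Chrnb4, Gm47877, is in none of the gene lists of the files, so its reads and those of Chrnb4 could not be told apart.

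The 250 bases before annotated starts are shown for Chrna5 and Chrna3, because the levels of these convergent neighbours relative to each other differed between the tissues. RefSeq (GRCm38.p6) gives Chrna5 a pair of starts and Chrna3 and Chrnb4 1 start each; the Chrnb4 window is not shown, since GENCODE places most of it inside an exon. Capitals mark the GC box, GGGCGG or CCGCCC on its other strand, a motif bound by Sp1 family factors.
Chrna5, first start, chr9:54980630-54980879, plus strand: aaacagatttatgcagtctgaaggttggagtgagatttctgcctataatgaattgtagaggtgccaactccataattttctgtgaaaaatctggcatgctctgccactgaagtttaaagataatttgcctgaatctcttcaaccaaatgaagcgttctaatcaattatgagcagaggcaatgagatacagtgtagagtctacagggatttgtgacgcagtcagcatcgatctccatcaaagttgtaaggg
Chrna5, second start, chr9:54981238-54981487, plus strand: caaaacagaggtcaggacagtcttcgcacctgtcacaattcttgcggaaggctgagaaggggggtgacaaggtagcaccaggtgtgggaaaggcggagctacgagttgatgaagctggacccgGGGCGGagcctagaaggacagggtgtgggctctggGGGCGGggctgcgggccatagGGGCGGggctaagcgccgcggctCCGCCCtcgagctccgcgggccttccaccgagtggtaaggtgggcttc
Chrna3, chr9:55026563-55026812, minus strand: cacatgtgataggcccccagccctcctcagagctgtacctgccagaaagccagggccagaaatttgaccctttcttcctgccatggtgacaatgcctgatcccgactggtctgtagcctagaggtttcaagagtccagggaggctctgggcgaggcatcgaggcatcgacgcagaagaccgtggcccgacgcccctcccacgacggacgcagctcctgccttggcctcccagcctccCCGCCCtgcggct
The window at the second Chrna5 start holds 4 GC boxes and is 65.2% G and C, while the window at the first start holds 0 and is 40.0% G and C. The Chrna3 window holds 1 GC box at 63.2% G and C, and the Chrnb4 window 0 at 61.2%. Of 32851 RefSeq windows of the same length, 32.7% hold a GC box, 3.34% hold 4 or more, and the median is 52.4% G and C. The E-box CANNTG, a motif of basic helix-loop-helix factors that reads the same on both strands, occurs once at the first Chrna5 start and 2 times in each of the other 3 windows, and 66.2% of all windows hold it.

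Libraries held 7908401 to 70481509 counts in genes. Levels are given as CPM, a library's counts scaled to a common total, after TMM scaling of all 44 libraries together. A level at 3 counts is the floor below which 0 counts cannot be told from a low level. Taken from all counts in genes without TMM scaling, it was 0.0426 to 0.379 CPM. That floor covers counting error alone, because the cDNA was amplified before sequencing. The files use 3 gene lists: list 1 in all inputs, the Chrna5 IPs and 3 ChAT IPs, list 2 in 5 ChAT IPs and every Amigo1 or Epyc IP, and list 3 in the 4 baseline ChAT IPs. List and fraction therefore cannot be told apart for Amigo1 and Epyc IPs against inputs. Within ChAT IPs, where lists could be compared, the shift between lists 1 and 2 was 0.27 ± 0.34 for Chrna5, -0.03 ± 0.19 for Chrna3 and 0.40 ± 0.21 for Chrnb4 (log2 difference ± SE, adjusted p = 0.700, 0.955 and 0.315 by edgeR). Of 15263 genes 6.41% were called for that shift, with a median absolute shift of 0.38. Nicotine and the saline pump occurred on list 2 only and baseline on list 3 only. List and treatment thus cannot be fully told apart in these IPs. Tissue labels matched the levels of the markers Chat and Sst. The choline acetyltransferase gene Chat stood at 81.1 to 186 CPM in ChAT IPs without nicotine and at 8.93 to 14.0 CPM in ChAT inputs. In every library of the IPN lines without nicotine it stood at 0 to 1.68 CPM. Sst, the somatostatin gene of many IPN neurons, stood at 281 to 5202 CPM in IPN IPs without nicotine and at 1.02 to 11.3 CPM in ChAT IPs without nicotine. The 3 Amigo1 nicotine IPs stood apart with Sst at 14035 to 35531 CPM, against 3955 to 5202 CPM in their controls.

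Chrna3, the α subunit of the habenular receptor, was highest in the ChAT IPs. The 9 ChAT IPs without nicotine ranged from 1081 to 1679 CPM with a median of 1414 CPM, and the ChAT inputs held 85.9, 85.6, 86.7 and 116 CPM. The Chrna5 IPs held 453, 515 and 598 CPM and the Chrna5 inputs 147, 174, 182 and 195 CPM. Every Chrna5 input thus lay above every ChAT input, although the IPs of these lines lay in the opposite order. The Amigo1 IPs held 93.4, 113 and 154 CPM against 29.0, 20.8, 24.5 and 27.8 CPM in the inputs. The Epyc IPs held 68.6, 46.5, 50.2, 60.7 and 35.3 CPM against 23.4, 19.3, 27.2 and 45.8 CPM in the inputs. In the Epyc line the IP and input ranges overlapped, because the saline pump input was the highest input and the saline pump IP the lowest IP.

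Chrnb4, the β subunit that pairs with α3, followed the same order of lines at its upper end. The 9 ChAT IPs without nicotine ranged from 900 to 1595 CPM with a median of 1107 CPM, and the ChAT inputs held 93.1, 97.8, 95.3 and 87.2 CPM. The Chrna5 IPs held 225, 354 and 406 CPM, and the Chrna5 inputs held 61.4, 100.3, 109 and 80.5 CPM. ChAT and Chrna5 inputs overlapped for this gene. The Amigo1 IPs held 42.6, 57.7 and 84.9 CPM against 19.4, 10.8, 17.6 and 16.6 CPM in the inputs. The Epyc IPs held 79.4, 56.4, 61.4, 60.4 and 81.5 CPM against 8.31, 10.7, 15.3 and 17.5 CPM in the inputs. Amigo1 and Epyc IPs overlapped, and so did their inputs.

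Chrna5, the accessory subunit, was low in the MHb and abundant in the IPN. The ChAT inputs held 45, 30, 21 and 16 counts, which were 0.809, 0.456, 0.427 and 0.764 CPM. The 9 ChAT IPs without nicotine ranged from 3.07 to 7.15 CPM with a median of 4.86 CPM, below every IPN library. The Chrna5 IPs held 314, 514 and 337 CPM and the Chrna5 inputs 102, 121, 99.3 and 106 CPM. The Amigo1 IPs held 136, 155 and 148 CPM against 28.3, 24.4, 35.1 and 39.8 CPM in the inputs. The Epyc IPs held 110, 123, 119, 112 and 103 CPM against 22.1, 21.4, 22.4 and 58.5 CPM in the inputs. Among inputs of the Amigo1 and Epyc lines, the Epyc saline pump input stood apart, and the Chrna5 inputs overlapped the Epyc IPs.

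Per kilobase of exon the genes can be set beside each other. In ChAT IPs without nicotine the mean level was 328 CPM per kb for Chrnb4, 263 for Chrna3 and 1.72 for Chrna5. In Chrna5 IPs it was 88.2 for Chrnb4, 99.1 for Chrna3 and 124 for Chrna5. In Amigo1 IPs it was 16.6 for Chrnb4, 22.8 for Chrna3 and 46.9 for Chrna5, and in Epyc IPs it was 18.2, 9.93 and 36.3 CPM per kb. The MHb libraries thus held mostly Chrna3 and Chrnb4, and Chrna5 had the highest mean of the 3 genes in the IPs of each IPN line. The order did not hold in every library. In the Chrna5 IP of pool 4 the ratio to Chrna5 per length was 1.05 for Chrna3 and 1.01 for Chrnb4. In CPM without exon length, Chrna3 was above Chrna5 in every Chrna5 IP, but only at 515 against 514 CPM in pool 2. The order in that line thus depends on the exon lengths used. So does the order of Chrnb4 and Chrna3 in ChAT IPs without nicotine. In CPM their means were 1220 for Chrnb4 and 1386 for Chrna3, opposite to the order per kb.

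**Figure D1:**
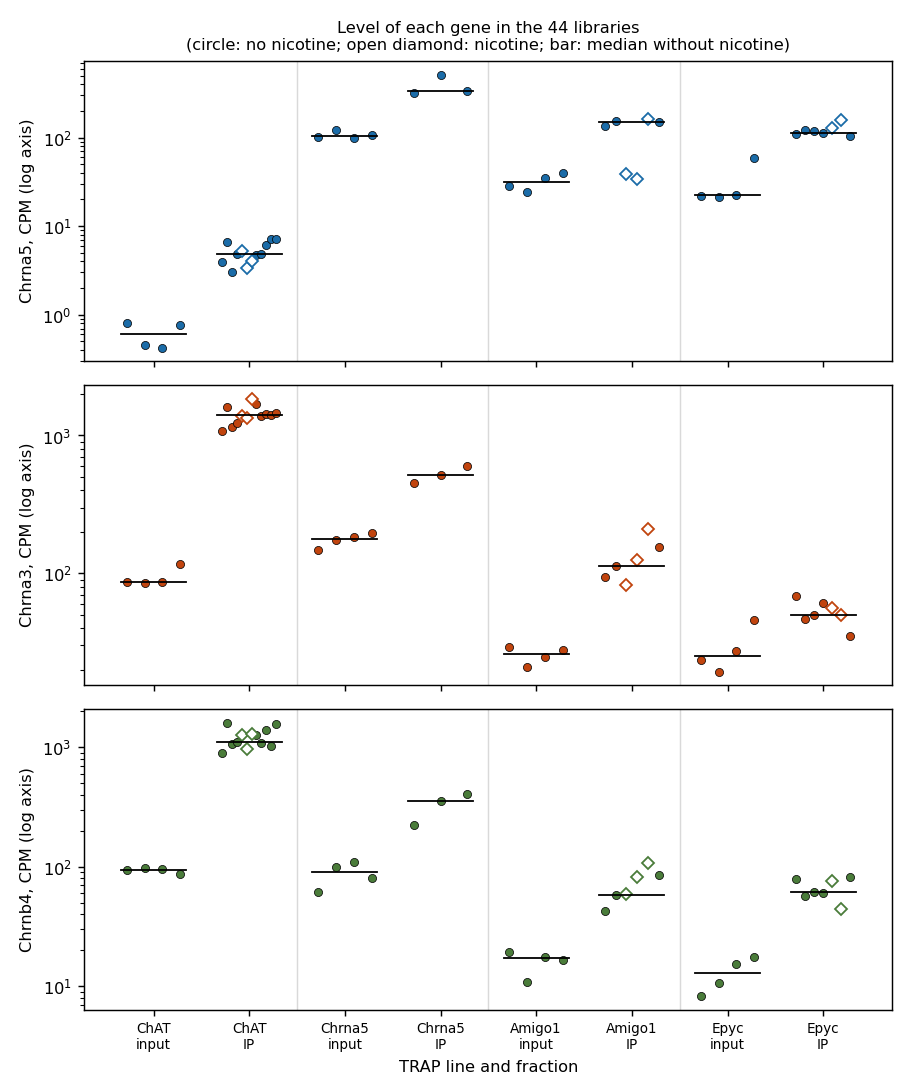
Level of Chrna5, Chrna3 and Chrnb4 (CPM, log axis) in each of the 44 libraries, by TRAP line and fraction; circles are libraries without nicotine, open diamonds libraries with nicotine, and bars medians without nicotine. Chrna5 is between 0.427 and 0.809 CPM in ChAT inputs and between 99.3 and 121 CPM in Chrna5 inputs, while Chrna3 and Chrnb4 are highest in ChAT IPs.

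Setting IPs against inputs asked how far each transcript was enriched on tagged ribosomes. All 3 genes rose in the IP of all 4 lines. In the ChAT line, where 53.1% of 15289 genes tested were called at adjusted p < 0.05, Chrna3 rose by 3.80 ± 0.16, Chrnb4 by 3.63 ± 0.17 and Chrna5 by 3.06 ± 0.32 (log2 difference ± SE, 9 IPs against 4 inputs, edgeR quasi-likelihood test, adjusted p = 2.85e-10, 7.51e-10 and 1.82e-06). In the Chrna5 line, with 33% of genes called, Chrnb4 rose by 1.84 ± 0.21, Chrna5 by 1.80 ± 0.17 and Chrna3 by 1.52 ± 0.14 (edgeR, adjusted p = 2.20e-05, 4.04e-06 and 2.15e-06). In the Amigo1 line, with 30.6% called, the rises were 2.22 ± 0.21 for Chrna3, 2.18 ± 0.19 for Chrna5 and 1.92 ± 0.29 for Chrnb4 (edgeR, adjusted p = 7.60e-05, 4.51e-05 and 1.04e-03). In the Epyc line, with 36.1% called, Chrnb4 rose by 2.34 ± 0.24 and Chrna5 by 1.82 ± 0.27 (edgeR, adjusted p = 1.12e-06 and 5.47e-05). Chrna3 rose least there, by 0.81 ± 0.25 (edgeR, adjusted p = 0.0201), and lost its call without baseline input 1, baseline input 2 or baseline IP 1, at 0.73, 0.66 and 0.70 (adjusted p = 0.0618, 0.0695 and 0.0561). With baseline libraries only Chrna3 was at 1.23, and on the 3 Epyc pools with both fractions it was at 1.28 ± 0.19 with the pool as a replicate block and at 1.29 without it (edgeR, adjusted p = 1.89e-04, 2.17e-04 and 4.47e-04). The IP and input of 1 pool share animals, and the block left all 12 calls of the 4 lines in place. In the Amigo1 line 4442 genes were called over all libraries without nicotine. On the 3 pools with both fractions 3094 were called without the replicate block and 2537 with it. With the block the 3 genes were at 2.07 ± 0.17, 2.09 ± 0.22 and 1.70 ± 0.29 in the order Chrna5, Chrna3, Chrnb4. In bulk libraries such as these, fewer cells of a type and less RNA per cell cannot be told apart.

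Most markers of MHb neurons were not called higher in the IPs of the IPN lines. Of 12 MHb markers, 10 were tested in the Chrna5 line, where 1 rose and 4 fell, beside 33% of all genes called. The median was -1.75 on the log2 scale, beside 0.01 over all genes. There the difference was -4.17 ± 0.51 for the POU factor gene Pou4f1 and -3.31 ± 0.35 for the nuclear receptor gene Nr4a2 (edgeR, adjusted p = 3.82e-05 and 9.29e-06), while Kctd8, a GABA-B receptor auxiliary subunit gene, rose by 1.95 ± 0.16 (adjusted p = 1.16e-06). Of 8 markers tested in the Amigo1 line 1 rose and 3 fell, beside 30.6% of all genes called, with a median of -1.68 against -0.03 over all genes. Of 9 in the Epyc line 1 rose and 6 fell, beside 36.1%, with a median of -2.68 against -0.01. The summed level of the list was 120 to 161 CPM in Chrna5 IPs against 201 to 276 CPM in Chrna5 inputs, and Chat was at 0 in all 3 Chrna5 IPs. Astrocyte and oligodendrocyte markers, 8 of 8 in each list, fell in the IPs of all 4 lines. All 9 markers of dopamine and serotonin neurons, which lie near the IPN, fell in the IPs of each IPN line. Markers of IPN neurons were mixed. Of 9 tested, 7 rose and 1 fell in the Chrna5 line, with a median of 1.63. In the Amigo1 line 5 rose and 3 fell, with a median of 0.85, and in the Epyc line 3 rose and 3 fell, with a median of 0.19.

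**Figure D2:**
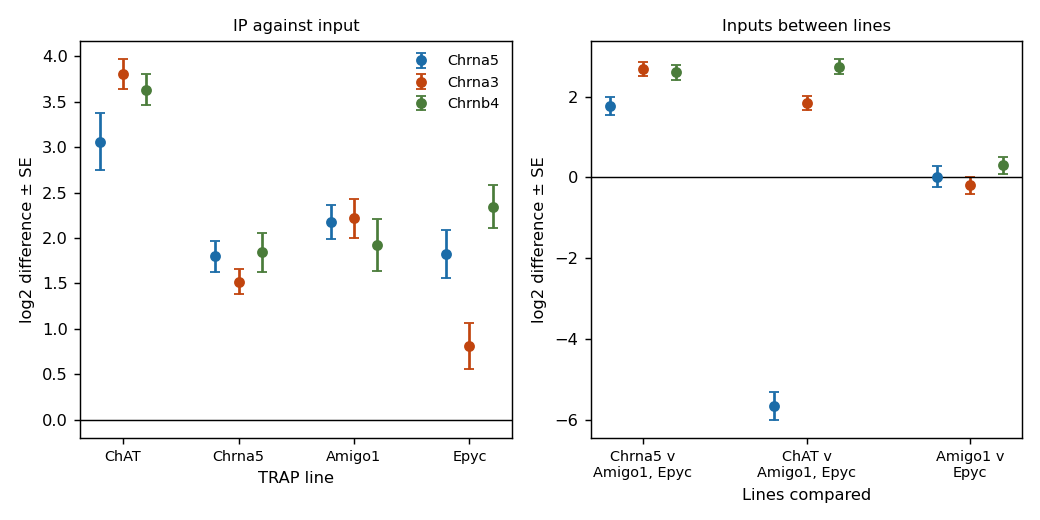
Differences on the log2 scale with their standard errors (edgeR) for Chrna5, Chrna3 and Chrnb4, left for IP against input in each TRAP line and right for inputs of one line against inputs of another. All IP differences lie above 0, from 0.81 for Chrna3 in the Epyc line to 3.80 for Chrna3 in the ChAT line, and Chrna5 falls to -5.67 in ChAT inputs against Amigo1 and Epyc inputs.

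All IPN lines gave inputs of the same labelled region, and those of the Chrna5 line stood above the rest at this gene cluster. Against the 8 inputs of the Amigo1 and Epyc lines, Chrna3 was higher by 2.68 ± 0.17, Chrnb4 by 2.60 ± 0.18 and Chrna5 by 1.77 ± 0.22, which are 6.43-fold, 6.08-fold and 3.41-fold (edgeR, adjusted p = 1.90e-09, 5.63e-09 and 2.98e-04). These were the 3 smallest p-values of the 15490 genes tested. 4 genes were called in all, or 0.0258%, and the fourth was Rpgrip1l, a gene of the ciliary transition zone, which differed by -1.03 ± 0.16 (edgeR, adjusted p = 0.00857). The 4 Chrna5 inputs lay above all 8 others for each of the 3 genes, and the share of all genes that separate in this way was not computed. With Amigo1 inputs alone, with Epyc inputs alone, with baseline inputs only and without any single library, all 3 calls held. Over those settings and the choices of scaling, filter and tool, Chrna3 lay between 2.59 and 2.87, Chrnb4 between 2.45 and 2.76 and Chrna5 between 1.70 and 2.09. DESeq2 called 31 genes, as did edgeR on baseline inputs alone. Without the Epyc saline pump input, which had the highest Chrna5 and Chrna3 of the 8, 14 genes were called and Chrna5 was higher by 2.02.

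The rise was seen at the 3 receptor genes and at no other tested gene within 250 kb. Below Chrna5, Psma4, a proteasome subunit gene 22850 bases away, differed by 0.07 ± 0.16, Hykk, the hydroxylysine kinase gene, by -0.09 ± 0.21, and Ireb2, an iron regulatory protein gene, by -0.12 ± 0.17 (edgeR, adjusted p = 0.950, 0.954 and 0.922). Farther off, Crabp1, a retinoic acid binding protein gene, differed by -0.56 ± 1.00 and Wdr61 by 0.19 ± 0.17. Beyond Chrnb4, Ube2q2, a ubiquitin conjugating enzyme gene 100075 bases away, differed by 0.23 ± 0.12, the F-box gene Fbxo22 by -0.08 ± 0.16 and the neuregulin gene Nrg4 by -1.25 ± 0.47 (edgeR, adjusted p = 0.765, 0.944 and 0.636). Of the 9 other nicotinic subunits tested, 0 were called in this comparison by edgeR, beside 0.0258% of all genes, with a median difference of 0.10. The same held for all 12 MHb markers, 9 IPN neuron markers and 9 dopamine and serotonin markers tested, with medians of -0.02, 0.21 and 0.01, and for the 3 glial lists of 8 genes each. With so few genes called in all, lists of this size would rarely hold a call, so the absence of calls in them tells little. The summed level of MHb markers was 201 to 276 CPM in the Chrna5 inputs and 205 to 304 CPM in the other 8 inputs. The line and the driver transgene that it carries cannot be told apart in this design.

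**Figure D3:**
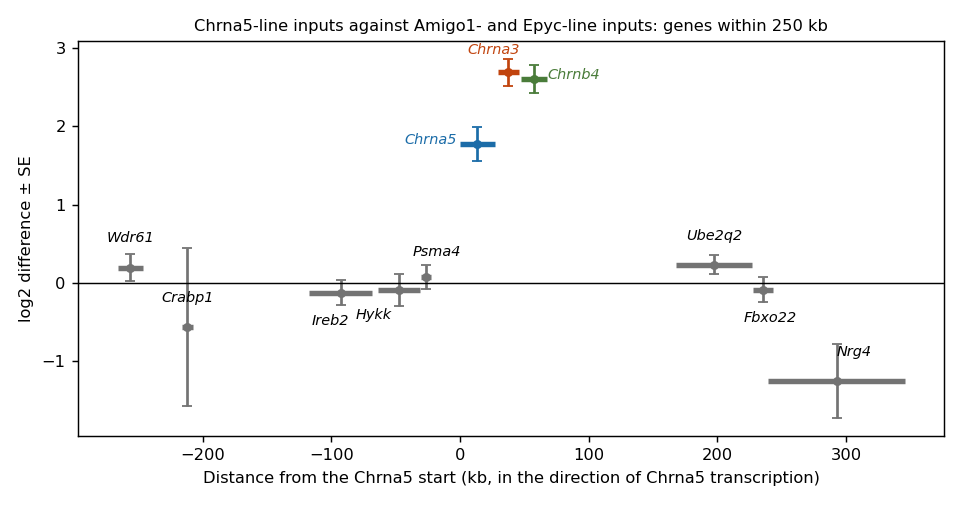
Differences between Chrna5-line inputs and Amigo1- and Epyc-line inputs (log2, point and standard error) for each tested gene within 250 kb, against distance from the Chrna5 start; thick bars give each gene's length. Chrna5, Chrna3 and Chrnb4 lie at 1.77, 2.68 and 2.60, and the 8 neighbours lie between -1.25 and 0.23, none of them called.

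No difference in enrichment of the cluster between the Chrna5 line and the other IPN lines passed the test. The enrichment of Chrna5, Chrna3 and Chrnb4 in IP over input differed from that in the Amigo1 line by -0.38 ± 0.38, -0.69 ± 0.31 and -0.07 ± 0.34 on the log2 scale (edgeR interaction, adjusted p = 0.663, 0.207 and 0.968), where 4.41% of 16113 genes were called. Against the Epyc line the differences in enrichment were -0.01 ± 0.36, 0.72 ± 0.29 and -0.49 ± 0.32 (edgeR, adjusted p = 1, 0.199 and 0.554), with 2.41% of genes called. With standard errors of 0.29 to 0.38 these values do not show that the lines enriched the genes alike. The ChAT line enriched all 3 genes more than the Chrna5 line did, by 1.31 ± 0.38 for Chrna5, 2.32 ± 0.29 for Chrna3 and 1.82 ± 0.31 for Chrnb4 (edgeR interaction, adjusted p = 0.0105, 7.39e-08 and 3.26e-05; 19.9% called). With only the ChAT IPs that share the gene list of the Chrna5 IPs, a setting added after the data were seen, all 3 calls held. MHb and IPN samples also entered library preparation with unlike amounts of RNA, per the labels' protocols.

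The IPs themselves kept the cluster highest in the Chrna5 line among the IPN lines. Chrna5, Chrna3 and Chrnb4 were higher than in Amigo1 IPs by 1.40 ± 0.25, 2.11 ± 0.22 and 2.41 ± 0.26 (edgeR, adjusted p = 2.23e-03, 4.85e-06 and 5.90e-06), where 8.44% of 14785 genes were called. They were higher than in Epyc IPs by 1.77 ± 0.22, 3.32 ± 0.19 and 2.27 ± 0.22 (edgeR, adjusted p = 2.88e-05, 1.74e-10 and 1.17e-06; 4.84% called), and Chrna3 had the smallest p of all genes there. The inputs of the Chrna5 line were higher too, as given above, and its IPs use another gene list than the other IPN IPs. Between Amigo1 and Epyc IPs, on 1 gene list, Chrna3 was higher in Amigo1 by 1.20 ± 0.19 (edgeR, adjusted p = 1.43e-04; 10.2% called). Chrna5 and Chrnb4 differed by 0.37 ± 0.22 and -0.14 ± 0.22 between them and were not called (adjusted p = 0.312 and 0.768). Their inputs, with 0% of genes called by edgeR, 825 at an unadjusted p under 0.05 and 5 called by DESeq2, differed by 0.02 ± 0.27 for Chrna5, -0.20 ± 0.20 for Chrna3 and 0.30 ± 0.22 for Chrnb4 (edgeR, adjusted p = 0.997, 0.933 and 0.914).

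Between tissues Chrna5 was lower in the MHb in all 3 comparisons made, while Chrna3 and Chrnb4 were higher in the MHb in 2 of them and not against the inputs of the Chrna5 line. In ChAT inputs against Amigo1 and Epyc inputs, Chrna5 differed by -5.67 ± 0.34, or 50.8-fold, while Chrna3 was higher by 1.84 ± 0.17 and Chrnb4 by 2.75 ± 0.18 (edgeR, adjusted p = 1.25e-11, 1.10e-08 and 4.01e-11; 30.9% called). Against the raised inputs of the Chrna5 line, Chrna5 differed by -7.43 ± 0.37, Chrna3 by -0.84 ± 0.20 and Chrnb4 by 0.14 ± 0.21 (edgeR, adjusted p = 1.04e-12, 3.13e-03 and 0.675; 25.4% called). In the IPs, ChAT against Chrna5, Chrna5 fell by 6.18 ± 0.19 while Chrna3 rose by 1.40 ± 0.19 and Chrnb4 by 1.89 ± 0.23 (edgeR, adjusted p = 5.01e-17, 2.72e-06 and 4.64e-07; 33.5% called). With ChAT IPs of list 1 only these 3 calls held.

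The proportions of the genes to each other were compared as log2 ratios of counts per exon length, in 27 exact permutation tests with Benjamini-Hochberg adjustment, of which 5 passed. In ChAT inputs the ratio of Chrna3 to Chrna5 was 6.52 ± 0.41 (SD, n = 4) against -0.92 ± 0.29 (SD, n = 8) in Amigo1 and Epyc inputs, a difference of 7.44 (exact two-sided p = 0.00404, adjusted p = 0.0218). Chrnb4 to Chrna5 differed by 8.36 and Chrnb4 to Chrna3 by 0.92 between the same inputs, each with that exact p, the smallest that 4 against 8 libraries allow. The left and right baseline MHb inputs may come from the same males, which tests with ChAT inputs leave out of account. In Chrna5 inputs the ratio of Chrna3 to Chrna5 was -0.05 ± 0.21 (SD, n = 4), higher by 0.87 than in Amigo1 and Epyc inputs (exact p = 0.00404, adjusted p = 0.0218), and the groups did not overlap. Chrnb4 to Chrna5 was higher by 0.77 there and did not pass (exact p = 0.0162, adjusted p = 0.0545), and Chrnb4 to Chrna3 differed by -0.10 (exact p = 0.630). By this test Chrna3 stood higher relative to Chrna5 in those inputs. Without any one of the 4 Chrna5 inputs this call was lost, at differences of 0.81 to 0.93 (exact tests, adjusted p = 0.0536 to 0.0612). With 3 ChAT inputs the differences were 7.32 to 7.63, 8.20 to 8.52 and 0.86 to 1.06 in the order above, and the adjusted p was 0.0545 in each case. In both sets the groups of 3 and 8 still did not overlap, and the exact p was the smallest that such a test can give.

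Within lines, 1 of the 12 IP and input ratios passed, in the ChAT line. There Chrna3 to Chrna5 was 7.29 ± 0.32 (SD, n = 9) in IPs and 6.52 ± 0.41 (SD, n = 4) in inputs (exact p = 0.00280, adjusted p = 0.0218), and it lost its call with the 3 IPs of list 1, at a difference of 0.81 (adjusted p = 0.193). In the Epyc line Chrnb4 to Chrna3 was 0.90 ± 0.47 (SD, n = 5) in IPs and -0.64 ± 0.35 (SD, n = 4) in inputs, with no overlap, and Chrna3 to Chrna5 was -1.90 ± 0.36 (SD, n = 5) and -0.79 ± 0.27 (SD, n = 4), with no overlap either. Both reached the smallest exact p that 5 against 4 libraries allow, 0.0159, and missed the threshold after adjustment (adjusted p = 0.0545). In the Chrna5 and Amigo1 lines, where 3 against 4 libraries cannot go below 0.0571, the IP and input ratios overlapped for all 3 pairs. IPs and inputs of 1 pool share animals, which these tests leave out of account, so the ratios were also taken as IP minus input within each pool, a setting added after the data were seen. Within pools Chrnb4 to Chrna3 was higher in the IP in all 3 Chrna5 pools, by 0.25, 0.25 and 0.71, and lower in all 3 Amigo1 pools, at -0.56, -0.49 and -0.11. In the Epyc pools it was higher by 1.70, 1.13 and 0.82, and Chrna3 to Chrna5 differed by -0.76, -1.26 and -1.16. Each reached the smallest p of an exact sign-flip test on 3 pools, 0.25. In the ChAT line, where only 2 pools had both fractions, Chrna3 to Chrna5 was higher in the IP by 0.26 and 0.43, with a mean of 0.34 against 0.77 over all libraries (exact p = 0.5, the smallest for 2 pools). Epyc IPs were the only IPN group, of the 6 without nicotine, in which every library had more Chrnb4 than Chrna3 per length.

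**Figure D4:**
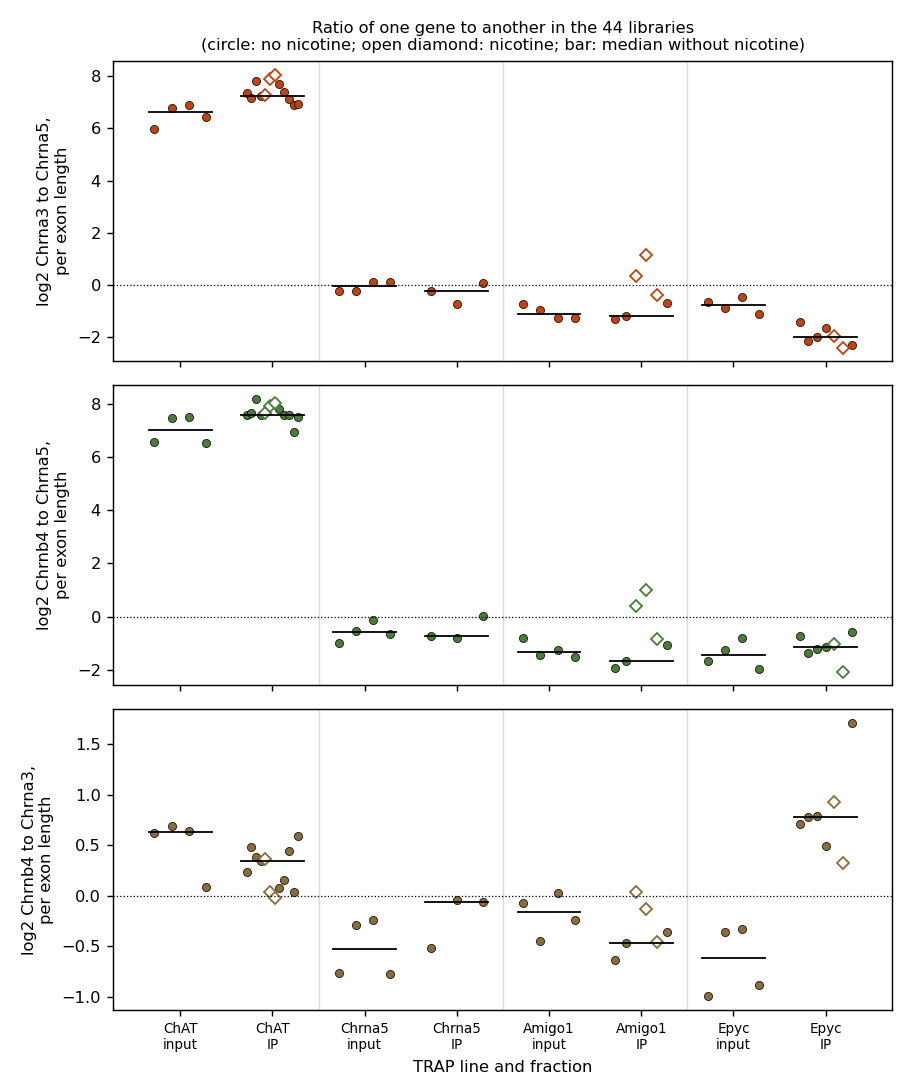
Log2 ratios of Chrna3 to Chrna5, Chrnb4 to Chrna5 and Chrnb4 to Chrna3 per exon length in each of the 44 libraries, by TRAP line and fraction; circles are libraries without nicotine, open diamonds with nicotine, bars medians without nicotine. The ratios to Chrna5 lie above 5 in MHb libraries and below 0.2 in IPN libraries without nicotine, and Chrnb4 to Chrna3 lies above 0 in every Epyc IP and below 0 in every Epyc input.

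Of 13 other nicotinic subunits on the list, 7 were tested in the ChAT line, where 4 rose and 1 fell with a median of 0.70 on the log2 scale beside -0.04 over all genes. Chrnb3, an accessory β subunit, rose by 3.51 ± 0.19 there, Chrna6 by 2.0 ± 0.41 and Chrnb2 by 0.70 ± 0.11, while the muscle subunit gene Chrna1 fell by 2.06 ± 0.36 (edgeR, adjusted p = 3.18e-09, 9.32e-04, 7.43e-05 and 2.49e-04). In each IPN line 8 were tested. There 1 rose and 4 fell in the Chrna5 line, 1 rose and 3 fell in the Amigo1 line, and 2 rose and 4 fell in the Epyc line, with medians of -0.64, -0.72 and -1.29 beside 0.01, -0.03 and -0.01 over all genes. The shares of all genes called were 53.1, 33, 30.6 and 36.1% in the order ChAT, Chrna5, Amigo1, Epyc. Chrna2 rose in all 3, by 1.77 ± 0.17, 2.58 ± 0.16 and 1.75 ± 0.31, and stood at 175, 217 and 140 CPM in the mean of Chrna5, Amigo1 and Epyc IPs against 0.03 CPM in ChAT IPs. Chrna4 fell in all 3 IPN lines, with differences of -0.98 ± 0.16, -1.09 ± 0.36 and -0.83 ± 0.16, while the Chrnb3 differences were -2.88 ± 0.22, -1.52 ± 0.31 and -3.25 ± 0.28. Per kb of exon Chrna4 had the highest mean of the subunits outside the cluster in ChAT inputs, 40.6 CPM per kb, and Chrnb3 in ChAT IPs, 64.9 CPM per kb, where Chrna3 stood at 263 CPM per kb.

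**Figure D5:**
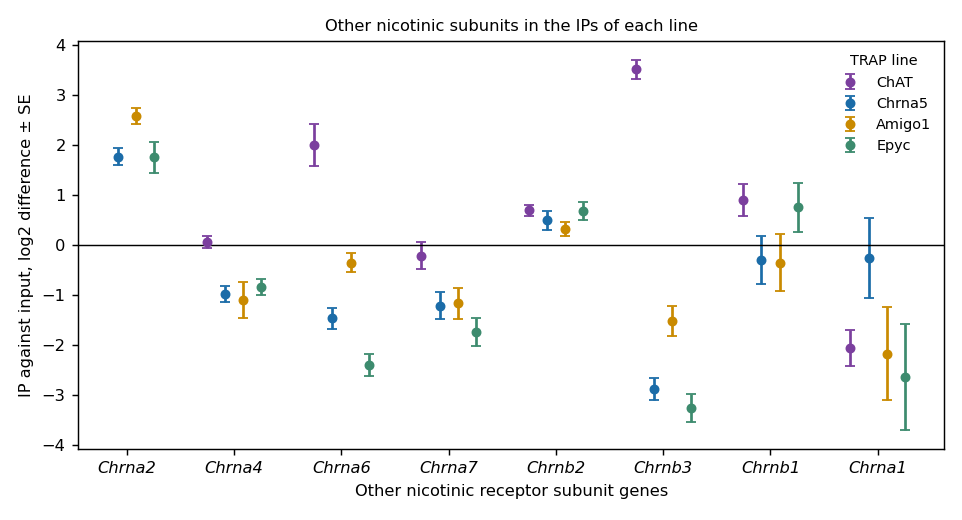
IP against input differences (log2, with standard errors, edgeR) of the 8 nicotinic subunit genes outside the cluster that were tested in at least 1 line, coloured by TRAP line. Chrna2 lies above 0 in the 3 IPN lines and was not tested in the ChAT line; Chrnb3 lies at 3.51 in the ChAT line and between -3.25 and -1.52 in the IPN lines.

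Of 8 genes tested that assist or modulate these receptors, 0 rose and 4 fell in the ChAT line, 1 rose and 1 fell in the Chrna5 line, 2 rose and 1 fell in the Amigo1 line and 3 rose and 1 fell in the Epyc line, beside 53.1, 33, 30.6 and 36.1% of all genes called in either direction, so that the shares called lay near the background. Lypd1, a membrane-anchored relative of snake toxins, fell in all 4 lines, with differences of -3.23 ± 0.42 in ChAT, -1.42 ± 0.20 in Chrna5, -3.05 ± 0.19 in Amigo1 and -2.93 ± 0.29 in Epyc. Its relative Lypd6 fell by 1.57 ± 0.14 in ChAT and rose by 0.71 ± 0.19, 2.41 ± 0.30 and 0.62 ± 0.21 in the IPN lines in that order. Ric3, a chaperone of nicotinic receptors, was not called in any line, at 0.09 ± 0.13, -0.15 ± 0.16, -0.11 ± 0.13 and 0.35 ± 0.21. Of factors reported at promoters of the cluster, 5 of 6 were tested in each line. Pou4f1 rose by 2.79 ± 0.27 in ChAT IPs and fell in the IPN lines, and its level was 283 to 702 CPM in ChAT IPs against 0.13 to 4.56 CPM in IPN IPs without nicotine. Sp1 rose by 1.65 ± 0.34 in the Amigo1 line and 1.01 ± 0.23 in the Epyc line, fell by 0.58 ± 0.17 in the ChAT line and differed by 0.08 ± 0.20 in the Chrna5 line, where it was not called; Sp3 was called in none of the 4 lines. Sox10, which is also an oligodendrocyte gene, fell in all 4.

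Across the 22 libraries of list 1 the level of Chrna3 followed that of Chrnb4 most closely among 10963 genes, with a Pearson r of 0.98 of log2 CPM, while r was 0.08 between Chrna3 and Chrna5 and -0.07 between Chrnb4 and Chrna5. Next to Chrnb4, the genes most like Chrna3 were Ankrd34a, the helix-loop-helix gene Nhlh2, Ubxn6 and Tsc22d1, at r of 0.91 to 0.92. Those most like Chrnb4 after Chrna3 were Nhlh2, Set, Srek1ip1 and the calcium sensor gene Ncald, at 0.92. Those most like Chrna5 were Ndst4, Fgf11, the neuronal nitric oxide synthase gene Nos1, the neurturin receptor gene Gfra2 and the complexin gene Cplx2, at 0.95 to 0.96. These points share lines, fractions and depth and are not independent. They include the 4 inputs and 3 IPs of the Chrna5 line, where all 3 genes were higher than in the other IPN lines. The part of that rise in the correlations was not tested. Over all 44 libraries Chrnb4 and Chrna3 stayed first for each other, at 0.97, while r with Chrna5 was -0.33 for Chrna3 and -0.37 for Chrnb4. Fgf11 stayed among the first 5 for Chrna5 there, together with Dgkb, Myo5b, Chrna2 and Pdzd2. Of the other genes named for Chrna3 and Chrnb4 over list 1, none was among the first 5 over all libraries.

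Nicotine was compared within lines. In the ChAT IPs, nicotine water (2 libraries) against saccharin water (2 libraries), Chrna5 held 3.37 and 4.08 CPM against 4.76 and 4.85 CPM. Chrna3 held 1337 and 1847 CPM against 1679 and 1387 CPM, and Chrnb4 held 967 and 1285 CPM against 1254 and 1094 CPM. The groups overlapped for Chrna3 and Chrnb4, and for Chrna5 both nicotine libraries were lower. How many of all genes separate between 2 and 2 libraries was not computed. The differences were -0.37 ± 0.30, 0.05 ± 0.20 and -0.06 ± 0.22 for Chrna5, Chrna3 and Chrnb4 (edgeR, adjusted p = 1 for each). Here 0% of 15547 genes were called by edgeR, 1095 had an unadjusted p under 0.05, and DESeq2 called 505. Nicotine and the gene list coincide in these libraries. The ChAT IP of nicotine water with a saline injection held 5.24 CPM of Chrna5, 1392 CPM of Chrna3 and 1266 CPM of Chrnb4, and has no replicate.

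In the Amigo1 IPs the nicotine libraries held 38.4, 33.8 and 161 CPM of Chrna5 against 136, 155 and 148 CPM in controls, so that a pair of libraries lay far below the controls and the third above them. Chrna3 held 82.2, 126 and 210 CPM with nicotine and Chrnb4 59.7, 81.4 and 108 CPM, both overlapping their controls. The differences were -0.85 ± 0.73 for Chrna5, 0.29 ± 0.58 for Chrna3 and 0.50 ± 0.67 for Chrnb4 (edgeR, adjusted p = 0.690, 0.878 and 0.814), with 0% of 12276 genes called by edgeR, 1794 at an unadjusted p under 0.05 and 1678 called by DESeq2. The median over all genes was 0.14 with TMM and -0.55 with library totals alone. With totals alone Chrna3 and Chrnb4 took the opposite sign, at -0.41 and -0.19. The ratio of Chrna3 to Chrna5 was higher in all 3 nicotine libraries than in all 3 controls, by 1.44, and that of Chrnb4 to Chrna5 by 1.74 (exact p = 0.1 for each, the smallest that 3 against 3 allow, adjusted p = 0.245). Without nicotine library 4 the Chrna5 difference was -1.94. Beside these values, Sst was 14035 to 35531 CPM in the nicotine libraries, the summed IPN neuron markers 18382 to 38082 CPM against 7262 to 8103 CPM in controls, and Pou4f1 ranged from 0 to 215 CPM. The summed MHb markers were 218 to 508 CPM against 78.9 to 92.7 CPM and the summed astrocyte markers 865 to 2595 CPM against 474 to 723 CPM, neither with overlap. Oligodendrocyte markers, 383 to 3483 CPM against 592 to 1728 CPM, and microglia markers, 0 to 14.5 CPM against 10.5 to 30.2 CPM, overlapped. The part of these differences in the result was not tested. The nicotine mice of this line also had saccharin, which their controls did not.

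In the Epyc IPs the nicotine pump libraries held 129 and 156 CPM of Chrna5, both above the 103 to 123 CPM of the 5 controls. The share of all genes that separate in this way was not computed. The nicotine pump libraries held 56.1 and 49.7 CPM of Chrna3 and 75.3 and 44.2 CPM of Chrnb4. Chrna3 lay within the range of the controls, and for Chrnb4 1 library lay within it and the other below it. The differences were 0.33 ± 0.16 for Chrna5, 0.02 ± 0.24 for Chrna3 and -0.19 ± 0.24 for Chrnb4 (edgeR, adjusted p = 0.519, 0.989 and 0.849), with 1 gene of 13810 called, or 0.00724%. Of the 5 controls 4 were baseline mice without a pump, so pump and nicotine largely coincide. Against the 1 saline pump control, a lone library assumed to vary like the others, the differences were 0.44, 0.56 and -0.48 for Chrna5, Chrna3 and Chrnb4 (edgeR, adjusted p = 0.664, 0.683 and 0.714). None of the 9 nicotine differences of the cluster passed with DESeq2, without the filter on low counts, with library totals or without any single library. Replicates are pools of mice, whose spread these p-values measure, and a miss does not show that levels were alike: the standard errors of the Amigo1 comparison alone were 0.58 to 0.73 on the log2 scale.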

How the data were processed

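Each library has a file in which the authors deposited raw read counts by gene symbol; alignment to mm10 with STAR 2.3.0e, counting with HTSeq and comparison with DESeq2 are named in the submitters' processing notes, with no settings given in the sources used here. Libraries were made from amplified cDNA with no molecular identifiers or strand marking named, per the labels' protocols. Tests used the 22682 symbols found in all files, which held 71.6 to 98.3% of a library's counts. Reads in no gene (8.46 to 27.3% of a library), ambiguous reads (0.536 to 5.56%) and reads without a unique place (20.3 to 57.0%) stayed out of library sizes.

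Differences were computed with edgeR 4.0.16 in R 4.3.3 (TMM, filterByExpr with a minimum count of 10, robust quasi-likelihood F test, Benjamini-Hochberg adjustment over all genes tested, calls at 0.05), 1 fit per line for IP against input, 1 over all inputs, 1 over all IPs without nicotine, 1 over both fractions and 1 per line for nicotine. The SE is the log2 difference divided by the square root of F. Ratios used log2 of counts plus 0.5 and exact permutation tests (scipy 1.17.1). DESeq2 1.42.0 was the other count test; limma 3.58.1, pandas 2.3.3, numpy 2.4.6 and, for plots, matplotlib 3.10.9 ran under Python 3.11.15 and R. Scripts were tested on simulated data. Exon lengths are unions over GENCODE M21 transcripts. The members, lists and comparisons were chosen with earlier results of these data known. 1 gene of the lists is not reported here. Named genes were the 3 members, tested genes within 250 kb of them, up to 4 called genes with the smallest adjusted p of each list and IP comparison, with others of the lists named for contrast after their values were seen, and the 5 genes most like each member by Pearson r among genes of mean CPM of at least 5.

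Same-numbered IPs and inputs were taken as 1 pool, since the labels give them 1 number and pool size and the protocol took RNA of both fractions from a homogenate. Deviations from group means correlated at 0.024 to 0.24 within pools. For pool 4 of the Chrna5 line and pool 4 of the Epyc line, another input of the line correlated more strongly with the IP. The pairing thus rests on the labels and the protocol. Replicates are pools. Alternatives were DESeq2, library totals without TMM, no filter, each library left out, the pool as a block, subsets by gene list and treatment, and other pseudocounts.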

Additional observations from a re-analysis of the deposited data

Results flagged for a closer look

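Of 36 sets of 4 to 10 libraries of 1 line and fraction checked for a library far from the others, 4 were marked, and chance marks about 1 in 20. The Epyc saline pump input had Chrna5 at 58.5 CPM, against 21.4 to 22.4 CPM in the other 3 Epyc inputs. The second ChAT input of saline-injected saccharin mice had Chrna3 at 116 CPM, against 85.6 to 86.7 CPM in the other 3, and its log2 ratio of Chrnb4 to Chrna3 per length was 0.083, the lowest of the 4. The Epyc saline pump IP had a log2 ratio of Chrnb4 to Chrna3 of 1.71, the highest of the 5 Epyc IPs without nicotine. The enrichment of IP over input differed between the ChAT and Chrna5 lines for all 3 genes, by 1.31 for Chrna5, 2.32 for Chrna3 and 1.82 for Chrnb4 on the log2 scale, by the interaction test. The part of tissue, driver, gene list and amount of starting RNA in these differences was not tested.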

How the results depend on the processing

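Of the member differences that were called, all 157 values under other settings kept their direction and call, and so did 339 with 1 library left out, while 3 lost the call, all for Chrna3 in the Epyc line, IP against input, at 0.66 to 1.12 over libraries. With library totals in place of TMM, differences that were not called took the other sign: Chrnb4 enrichment in the Chrna5 line minus the Amigo1 line (0.094), Chrna3 (-0.41) and Chrnb4 (-0.19) with nicotine in Amigo1 IPs and Chrna3 with nicotine in Epyc IPs (-0.0015). That scaling moved the median of all genes by -0.69 in the Amigo1 nicotine comparison and by 0.21 and 0.19 in Chrna5 and Epyc IPs against inputs. With ChAT IPs of list 1 only, the ratio of Chrna3 to Chrna5 in IP against input (0.81) lost its call, with 3 IPs in place of 9. As IP minus input within pools, a replicate block on ratios added after the data were seen, that ratio was 0.34 on 2 pools, which cannot pass a test, and Chrna3 to Chrna5 in the Amigo1 line took the other sign (0.017).

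With each library left out, uncalled differences that changed sign ran from -0.0024 to 0.24 for Chrnb4 in ChAT against Chrna5 inputs, -0.12 to 0.53 for Chrna5 and -0.35 to 0.12 for Chrna3 in Amigo1 against Epyc inputs, -0.42 to 0.097 for Chrnb4 in Amigo1 against Epyc IPs, -0.26 to 0.26 for Chrnb4 enrichment in Chrna5 minus Amigo1 and -0.51 to 0.12 for Chrna5 enrichment in Chrna5 minus Epyc. With nicotine they ran from -0.16 to 0.24 (Chrna3) and -0.25 to 0.10 (Chrnb4) in ChAT, -0.13 to 0.54 (Chrna3) in Amigo1, and -0.091 to 0.13 (Chrna3) and -0.64 to 0.16 (Chrnb4) in Epyc. Ratios that changed sign or call ran from 0.41 to 0.73 (Chrnb4 to Chrna5) and -0.34 to -0.14 (Chrnb4 to Chrna3) in ChAT IP against input, -0.19 to 0.22 (Chrnb4 to Chrna5) in the Chrna5 line, -0.19 to 0.11 (Chrna3 to Chrna5) in the Amigo1 line, 0.81 to 0.93 (Chrna3 to Chrna5) in Chrna5 inputs, 7.32 to 7.63, 8.20 to 8.52 and 0.84 to 1.06 in ChAT inputs in the order used above, and -0.57 to 0.028 (Chrnb4 to Chrna3) with nicotine in Epyc. The cause was not tested.

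The replicate block gave 2537 genes called in the Amigo1 line against 4442, and 3094 on the same pools without it; it changed no member call, and in the ChAT line it gave 5810. Counts moved beyond 1.5 times were 3401 against 8125 in ChAT IP against input with saline-injected saccharin mice only, which are also the pools with both fractions; 31 by DESeq2 and 31 with baseline inputs only, against 4, in Chrna5 inputs; 1 without the filter and 5 by DESeq2, against 0, in Amigo1 against Epyc inputs; and by DESeq2 2093 against 1248 in Chrna5 against Amigo1 IPs, 1316 against 715 in Chrna5 against Epyc IPs, 1286 against 711 and 771 against 388 for the enrichment differences. With nicotine, DESeq2 called 505, 1678 and 85 genes in ChAT, Amigo1 and Epyc against 0, 0 and 1, and without the filter 1 was called in Amigo1. Leaving out 1 library gave 14 without the Epyc saline pump input for Chrna5 inputs, 22 without nicotine replicate 3 in Amigo1, 73 without nicotine replicate 1 in Epyc and 942 against 1512 without the Amigo1 saline pump IP in Amigo1 against Epyc IPs. Without the Chrna5 IP of pool 1, 2 or 4 it gave 801, 463 and 355 in Chrna5 against Amigo1 IPs (429 without the Amigo1 saline pump IP) and 403, 302 and 259 in Chrna5 against Epyc IPs. The enrichment count for Chrna5 minus Amigo1 ran from 304 without the Amigo1 saline pump IP to 1099 without Amigo1 baseline IP 4, and that for Chrna5 minus Epyc was 222 without the Chrna5 IP of pool 4. Chrna5 counts in ChAT inputs, 16 to 45, limit the precision of every ratio to Chrna5 there.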
